A study of Danio rerio with 6 samples.

Results

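The NF-κB inhibitors and a set of inflammatory signalling genes, 7 in all, were followed in zebrafish larvae after hydrogen peroxide (H2O2) treatment. They are the IκBα paralogs nfkbiaa and nfkbiab, the adaptor traf6, the cytokine feedback inhibitor socs3b, the transcription factors cebpb and elf3, and the immune-responsive gene irg1l. They were found by symbol in the deposited RNA-seq table, where 7 of its 670 genes carry these names, 1 gene model each. Polyadenylated RNA of whole larvae of the Nacre strain, a pigment mutant, was sequenced in 3 libraries from larvae kept in water with 3 mM H2O2 and in 3 libraries from untreated larvae, both grown at the same temperature. The methods of the study state that larvae were anesthetized with tricaine before treatment. The labels put the larvae at 3 dpf (days post fertilization) with 2 h of H2O2. Larvae were pooled within each library, so values describe pools and not single animals.

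NF-κB is a family of transcription factors that wait in the cytoplasm bound to IκB proteins. Signals from Toll-like, interleukin-1 or TNF family receptors activate the IKK kinases, which mark IκB for destruction and so release NF-κB to the nucleus. In mammals the IκBα gene is itself a target of NF-κB, which makes it both an inhibitor and a readout of the pathway. NF-κB activity was not measured in these libraries. In larvae of an NF-κB reporter line, the study saw higher mean fluorescence and more labelled cells after 2 h of H2O2. Larval zebrafish rely on innate immunity, and H2O2 made at a wound is known to draw leukocytes in this animal.

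The table holds only genes that had passed a p threshold in this same contrast, so a difference between the groups was a condition of entry for all 7 genes. Their values are therefore a description, and the tests give their size relative to the spread between libraries. Values were deposited as log2(CPM + 1), where CPM is read counts scaled to a common library size (counts per 1e6 reads). The implied depth was 24727594 to 39766947 reads per library, and the 7 genes had between 225 and 4164 reads each. By limma over 24050 tests, 0 of the 7 passed an adjusted p of 0.05, as did 0 of the 670 genes (0% of the table in either direction), while all 7 were under 0.05 before adjustment, against 93.3% of the table (4 higher, with 55.5% of the table, and 3 lower, with 37.8%). Under some alternatives irg1l and traf6 were above 0.05, both of them with equal library medians. Those medians were taken over the 670 selected genes, 61.8% of them higher, and that setting lowered every difference by the same amount. In 6 of the 7 genes the H2O2 libraries did not overlap with the untreated ones, which held for 93.9% of the table, so this share is close to that of the genes around them. With 3 libraries against 3, an exact permutation test of a single gene cannot go below p = 0.1. In whole larvae, fewer cells of a type and less RNA per cell cannot be told apart.

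Both IκBα paralogs were lower after H2O2 treatment, and nfkbiaa was the further apart. IκBα holds NF-κB dimers in the cytoplasm. The gene nfkbiaa (ENSDARG00000005481) lies on chromosome 20 from 16922347 to 16925201 of Zv9, on the forward strand. Its level was 7.43, 7.57 and 9.91 CPM in the H2O2 libraries, against 15.2, 21.6 and 30.7 CPM in the untreated libraries. Each H2O2 library was below each untreated one. Mean CPM was 8.30 ± 1.39 in H2O2-treated larvae and 22.5 ± 7.76 in untreated larvae (SD, n = 3 each), a ratio of 0.369. On the log2(CPM + 1) scale the difference was −1.29 ± 0.23 (standard error, SE, limma, adjusted p = 0.230), the 6th most negative of the 256 lower genes in the table.

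The second paralog, nfkbiab (ENSDARG00000007693), lies on chromosome 17 from 12806046 to 12810148, also on the forward strand. It was at 37.2, 38.2 and 49.9 CPM in H2O2 libraries, against 59.2, 62.2 and 64.1 CPM in untreated libraries. The groups again did not overlap, and H2O2 replicate 3 was the library nearest to the untreated ones. Mean CPM was 41.8 ± 7.03 in H2O2-treated and 61.8 ± 2.46 in untreated larvae (SD, n = 3 each), a ratio of 0.675. The log2 difference was −0.57 ± 0.14 (SE, limma, adjusted p = 0.549), in place 81 of the 256 lower genes. Every H2O2 library was below every untreated one in 35.5% of the table, and in 3 of the 7 genes, the IκBα paralogs and elf3.

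**Figure D1:**
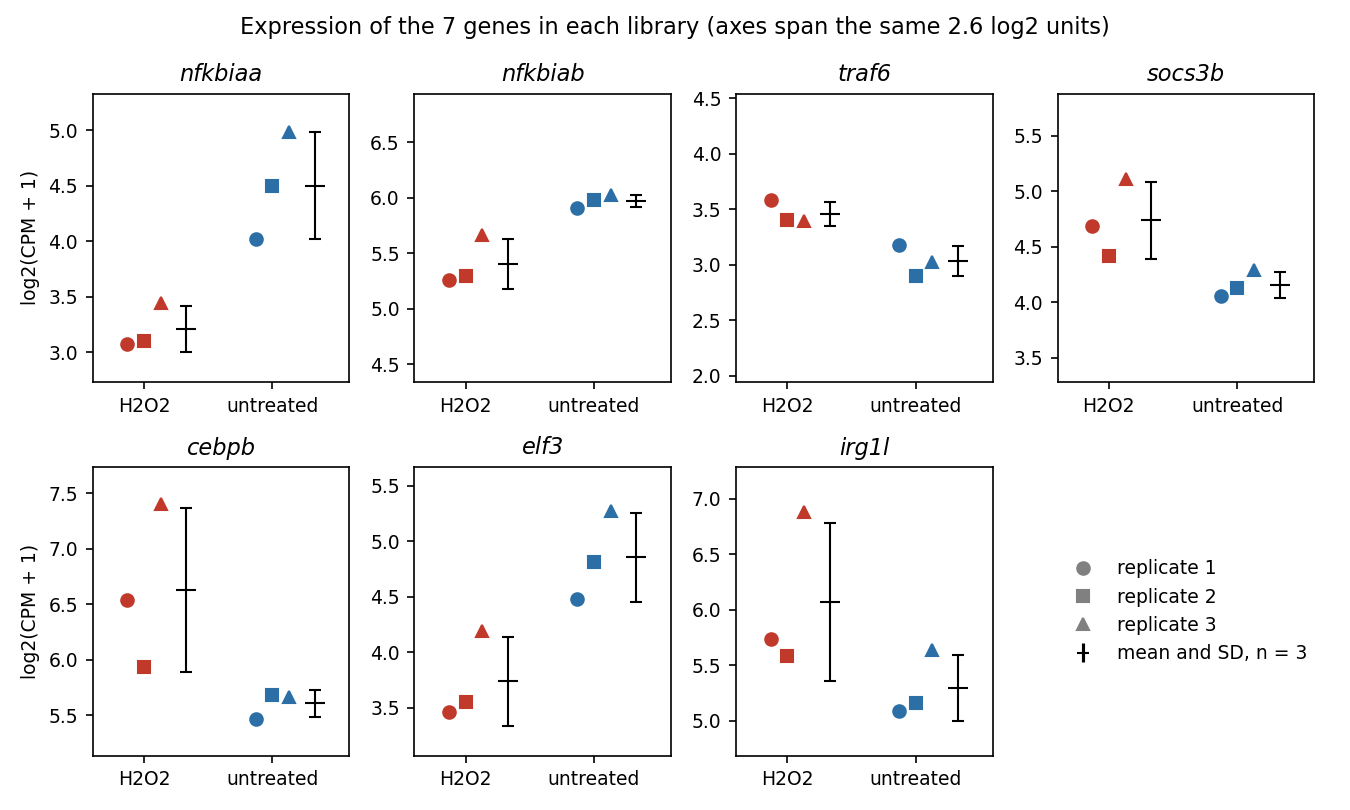
Level of each gene as log2(CPM + 1) in the 3 H2O2 libraries (red, left) and the 3 untreated libraries (blue, right), with replicate number by symbol shape and the mean and SD (n = 3) in black. The groups overlap in irg1l alone, and H2O2 replicate 3 was the highest H2O2 library in 6 of the 7 genes.

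The share of nfkbiaa in the reads of both paralogs was lower in each H2O2 library than in each untreated one. Of the reads on both, nfkbiaa held 16.6% (95% Wilson interval 14.7 to 18.7%), 16.5% (14.7 to 18.6%) and 16.6% (14.8 to 18.6%) in H2O2 replicates 1, 2 and 3. In untreated replicates 1, 2 and 3 it held 20.5% (18.9 to 22.1%), 25.7% (24.3 to 27.2%) and 32.4% (30.8 to 34.0%). These intervals cover counting error only, and reads are not corrected for gene length, so the share is not one of RNA molecules. The 3 H2O2 libraries lay within their counting intervals of one another, whereas the untreated intervals did not overlap with each other. On the log2 scale, nfkbiaa lay below nfkbiab by a difference of −2.20 ± 0.02 in H2O2-treated and −1.47 ± 0.43 in untreated larvae (SD, n = 3 each). The difference between these gaps, −0.73, was not tested, because both genes were chosen with their values known. With single libraries left out it ranged from −0.94 without untreated replicate 1 to −0.51 without untreated replicate 3. It also varied with the pseudocount, at −0.80 with 0.1 and −0.49 with 5. Summed over both paralogs, 44.7 to 59.8 CPM were measured in H2O2 libraries, against 74.5 to 94.8 CPM in untreated libraries.

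**Figure D2:**
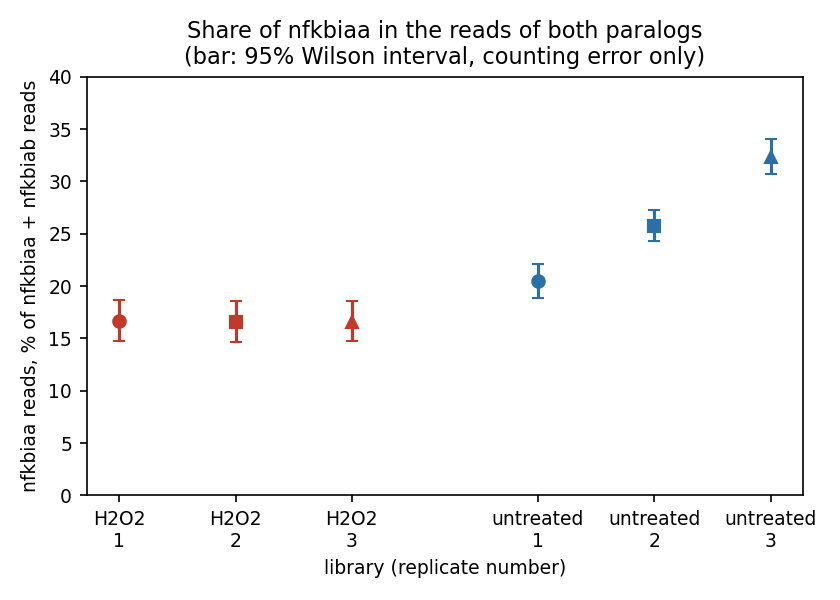
Reads on nfkbiaa as a percentage of the reads on nfkbiaa and nfkbiab together, per library, H2O2 left and untreated right, with 95% Wilson intervals for counting error. The H2O2 libraries sit at 16.5 to 16.6% and the untreated libraries are spread from 20.5 to 32.4%.

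Upstream of IκB, traf6 was modestly higher. Its product is an adaptor and ubiquitin ligase that links Toll-like and interleukin-1 receptors to the kinase TAK1 and so to IKK. The gene (ENSDARG00000028058) lies on chromosome 7 from 50179826 to 50195706, on the reverse strand. It had 11.0, 9.57 and 9.50 CPM in H2O2 libraries, against 8.05, 6.49 and 7.15 CPM in untreated libraries. All H2O2 libraries were above all untreated ones, as in 58.4% of the table and in 3 of the 7 genes (traf6, socs3b and cebpb). Mean CPM was 10.02 ± 0.839 in H2O2-treated and 7.23 ± 0.783 in untreated larvae (SD, n = 3 each), a ratio of 1.39, and the log2 difference was 0.42 ± 0.13 (SE, limma, adjusted p = 0.764). With equal library medians, a setting that lowers every difference alike, the difference was 0.28. Among the 7 genes it had the smallest difference and, in both groups, the smallest SD between libraries relative to counting error. The SD between libraries was 1.38 times the counting SD in the H2O2 group and 1.71 times in the untreated group.

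Of 51 symbols for receptors and adaptors upstream of NF-κB, traf6 was the 1 found in the table. Of 31 symbols for NF-κB subunits, IκB proteins, IKK and their regulators, 3 were found, namely both IκBα paralogs and tab2. The product of tab2 binds the ubiquitin chains that Traf6 makes and couples them to TAK1. In tab2, log2(CPM + 1) was 5.225, 5.204 and 5.931 in H2O2 libraries, against 5.021, 5.008 and 5.034 in untreated libraries. All H2O2 libraries of tab2 were above the untreated ones, with a difference of 0.43 ± 0.20 (SE, limma, adjusted p = 1), and H2O2 replicate 3 was the highest. Genes missing from the table, such as the NF-κB subunits, were not analysed here, and their absence says nothing about their level.

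The feedback inhibitor socs3b was higher in H2O2-treated larvae. Socs3 is induced by cytokines through STAT3 and shuts off signalling from the gp130 receptor chain. The gene (ENSDARG00000026611, chromosome 12 from 37046023 to 37065349, reverse strand) had 24.8, 20.4 and 33.4 CPM in H2O2 libraries, against 15.6, 16.5 and 18.5 CPM in untreated libraries. The groups did not overlap, and H2O2 replicate 2 was the closest to the untreated level. Mean CPM was 26.2 ± 6.62 in H2O2-treated and 16.9 ± 1.49 in untreated larvae (SD, n = 3 each), a ratio of 1.55. Its log2 difference was 0.58 ± 0.18 (SE, limma, adjusted p = 0.815).

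Other genes of cytokine receptor signalling in the table had the same direction as socs3b. Of 51 symbols for cytokine receptors, JAK kinases, STAT factors and SOCS proteins, 4 were found and all 4 were higher, 0 of them past the adjusted threshold and all 4 at an unadjusted p under 0.05. Of the table, 61.8% was higher and 93.3% was under 0.05 in either direction. Their median difference was 0.48, against 0.47 over the 414 higher genes of the table. They include il6st, which encodes gp130, at a mean log2(CPM + 1) of 5.08 ± 0.43 in H2O2-treated and 4.61 ± 0.08 in untreated larvae (SD, n = 3 each). The receptor gene lifrb, for a partner of gp130, had a difference of 0.47 ± 0.16 (SE), and socs8, a further SOCS family gene, one of 0.48 ± 0.13 (SE).

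Of the transcription factors, cebpb was higher and elf3 lower. C/EBPβ is a bZIP factor that in mammals cooperates with NF-κB at acute-phase and cytokine genes. The gene cebpb (ENSDARG00000042725, chromosome 8 from 29301377 to 29302892, reverse strand) had 91.9, 60.4 and 168 CPM in H2O2 libraries, against 43.3, 50.4 and 49.8 CPM in untreated libraries. Its groups did not overlap, but the H2O2 libraries were far apart from each other. Mean CPM was 107 ± 55.5 in H2O2-treated and 47.9 ± 3.93 in untreated larvae (SD, n = 3 each), a ratio of 2.23. The log2 difference was 1.02 ± 0.32 (SE, limma, adjusted p = 0.808), and 0.63 without H2O2 replicate 3. The SD between H2O2 libraries was 26.5 times the SD that counting alone gives.

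Elf3 is an ETS factor that in mammals is restricted to epithelia and is induced there by inflammatory cytokines. The gene elf3 (ENSDARG00000077982, chromosome 22 from 636674 to 640308, forward strand) had 10.03, 10.7 and 17.3 CPM in H2O2 libraries, against 21.3, 27.1 and 37.6 CPM in untreated libraries. No H2O2 library reached the lowest untreated one. Mean CPM was 12.7 ± 3.99 in H2O2-treated and 28.6 ± 8.28 in untreated larvae (SD, n = 3 each), a ratio of 0.443. With a log2 difference of −1.12 ± 0.25 (SE, limma, adjusted p = 0.398) it was the 8th most negative of the 256 lower genes, close to nfkbiaa.

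The list of inflammatory and epithelial transcription factors held 49 symbols, of which 8 were in the table, 6 higher and 2 lower, with a median difference of 0.52, against 0.40 over the table. None of the 8 passed the adjusted threshold in limma. Before adjustment, 4 of the 6 higher and both lower factors were under 0.05, that is 6 of 8, against 93.3% of the table (55.5% higher and 37.8% lower). Besides cebpb and elf3, the largest difference was that of bcl6ab, a relative of the repressor BCL6, at 4.67 ± 0.30 in H2O2-treated and 3.69 ± 0.10 in untreated larvae on the log2(CPM + 1) scale (SD, n = 3 each). The gene cebpd, for a C/EBP factor related to C/EBPβ, was at 6.160, 5.810 and 6.522 in H2O2 libraries, against 5.603, 5.861 and 5.774 in untreated libraries. The groups of cebpd overlapped, as H2O2 replicate 2 lay below the highest untreated library. The other lower factor was nr4a1, an immediate early nuclear receptor, with a difference of −0.56 ± 0.15 (SE).

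The effector irg1l was higher on average, with an overlap between the groups. Its mammalian relative, IRG1 or ACOD1, makes itaconate in activated macrophages. The gene irg1l (ENSDARG00000062788, chromosome 14 from 11625681 to 11629239, reverse strand) had 52.3, 46.8 and 117 CPM in H2O2 libraries, against 32.9, 34.7 and 48.7 CPM in untreated libraries. Untreated replicate 3 lay above H2O2 replicate 2. Mean CPM was 72.0 ± 39.0 in H2O2-treated and 38.8 ± 8.62 in untreated larvae (SD, n = 3 each), a ratio of 1.86. The log2 difference was 0.77 ± 0.33 (SE, limma, adjusted p = 1), and 0.37 without H2O2 replicate 3.

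Of 56 symbols for cytokines, chemokines and inflammatory effectors, irg1l and 4 others were in the table, and all 5 were higher. Their median difference was 0.77, the value of irg1l itself, against 0.47 over the 414 higher genes of the table. The genes mmp9 and mmp13a were above both medians, at 1.95 and 1.61, and cxcr4a and adam8a below both. None passed the adjusted threshold in limma, and all 5 were under 0.05 before adjustment, as was 93.3% of the table. The metalloproteinase gene mmp9 was at 5.17, 4.69 and 6.66 log2(CPM + 1) in H2O2 libraries, against 3.52, 3.43 and 3.72 in untreated libraries. The collagenase gene mmp13a was at 3.79, 3.62 and 5.22 in H2O2 libraries, against 2.53, 2.38 and 2.88 in untreated libraries. Both shared with irg1l the high value in H2O2 replicate 3, which was the highest H2O2 library in 76.3% of the 414 higher genes. The chemokine receptor gene cxcr4a had a difference of 0.42 ± 0.15 (SE) and the membrane protease gene adam8a one of 0.40 ± 0.15 (SE).

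Few or no markers of each cell type were in the table, which itself holds only 670 genes out of 24050 expressed ones. Of 11 neutrophil markers 2 were found, mmp9 and mmp13a, with a summed level of 36.1 to 136 CPM in H2O2 libraries, against 14.0 to 18.5 CPM in untreated libraries. Both also stand on the effector list, and the study cites Mmp13 as raised in migrating keratinocytes of mice. Of 13 macrophage markers 1 was found, irg1l itself, and of 11 markers of leukocytes in general 0 were found. Of 24 epidermal markers 2 were found, the hemidesmosome genes itgb4 and itga6b, at a summed 184 to 342 CPM in H2O2 libraries, against 110 to 123 CPM in untreated libraries. By group means elf3 was lower in H2O2-treated larvae and these were higher. Within the H2O2 group, however, replicate 3 was the highest library in elf3, itgb4 and itga6b alike. Of 8 liver markers 1 was found, cp, at 150 to 282 CPM in H2O2 libraries, against 129 to 130 CPM in untreated libraries. Of 8 erythrocyte markers 2 were found, at a summed 504 to 1201 CPM in H2O2 libraries, against 430 to 548 CPM in untreated libraries, with an overlap. Markers of skeletal muscle (10 symbols) and of lens and retina (11 symbols) were not among the genes of the table, and no marker that was found was at 0 in any library. The markers found had passed a p threshold in this same contrast, so a difference between the groups was a condition of their entry too. Groups did not overlap in 93.9% of the table. The sums leave out the markers not in the table and so are not levels of a cell type. The part of cell numbers in the 7 genes was not tested.

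H2O2 replicate 3 stood apart from the other H2O2 libraries in most of the 7 genes. It was their highest H2O2 library in 6 genes, traf6 being the exception. In the higher genes cebpb, irg1l and socs3b this put it farthest from the untreated mean, by 1.80, 1.59 and 0.95 on the log2 scale. It was the farthest in these 3 of the 7 genes and in 69.1% of the table, and the highest H2O2 library in 76.3% of the 414 higher genes. In the lower genes nfkbiaa, elf3 and nfkbiab it was the nearest to the untreated mean, by −1.05, −0.66 and −0.30. Among all 256 lower genes, replicate 3 was the highest H2O2 library in 27.3%. The median deviation of the lower genes was −0.60 in replicate 3, against −0.46 and −0.43 in replicates 1 and 2. Without replicate 3 the differences of the 3 lower genes were −1.41 in nfkbiaa, −1.34 in elf3 and −0.70 in nfkbiab. It was also the library of the lowest depth, and the part of depth was not tested.

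**Figure D3:**
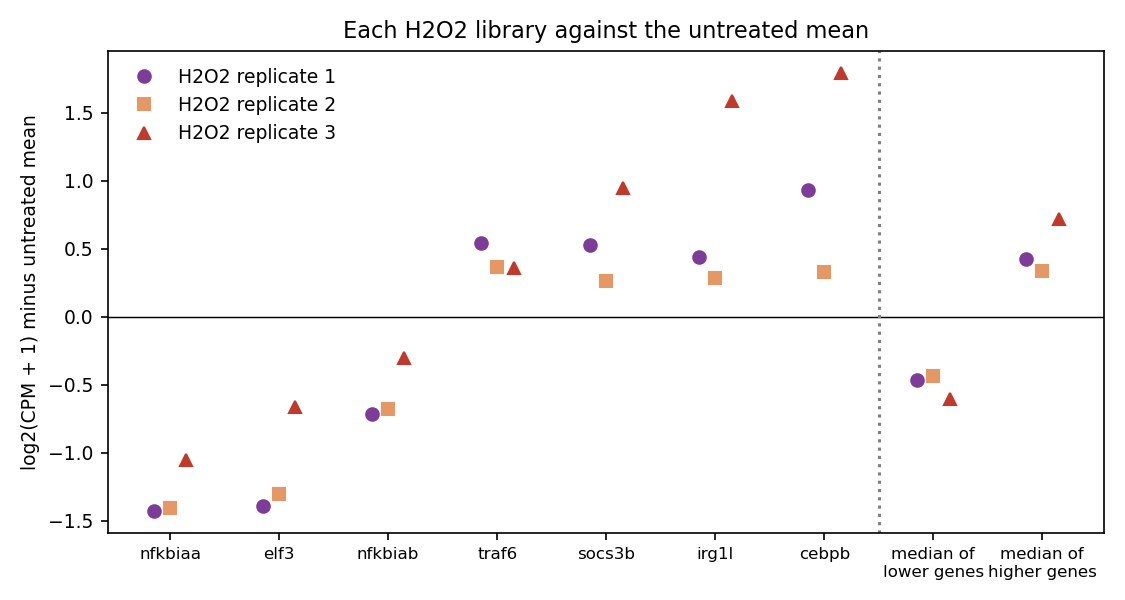
Log2(CPM + 1) of each H2O2 library minus the untreated mean, for the 7 genes and, right of the dotted line, as the median over all lower and all higher genes of the table. H2O2 replicate 3 (triangles) lies nearest to 0 in the 3 lower genes and at 1.80, 1.59 and 0.95 in cebpb, irg1l and socs3b.

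The untreated libraries also differed among themselves. In nfkbiaa, elf3 and irg1l the SD between untreated libraries was 0.48, 0.40 and 0.30 log2 units, against a median of 0.09 over the table, and at percentiles 99.3, 97.9 and 95.4 of its genes. In nfkbiab it was 0.06. Untreated replicate 1 was the lowest untreated library in 6 of the 7 genes, which held for 47.8% of the table, and untreated replicate 3 the highest in 5 of the 7, which held for 35.4%. Among H2O2 libraries the SD was largest in cebpb and irg1l, at 0.74 and 0.71, against a median of 0.22 over the table. The SD of nfkbiaa, by contrast, was 0.21 in H2O2 libraries, near that median.

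**Figure D4:**
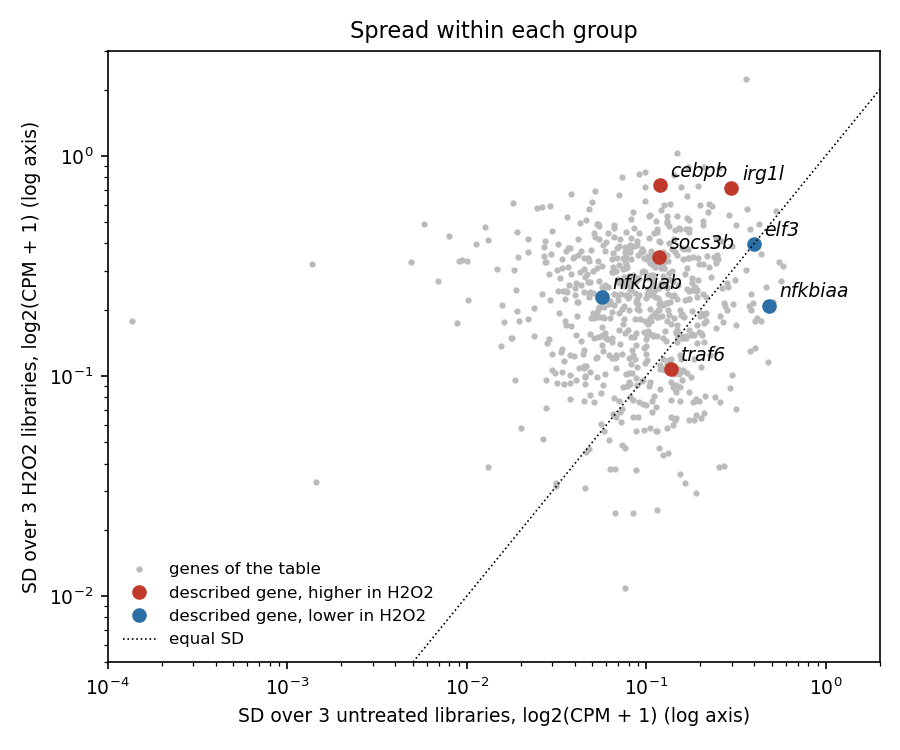
SD of log2(CPM + 1) over the 3 H2O2 libraries (vertical, log axis) against that over the 3 untreated libraries (horizontal, log axis), for the 670 genes of the table in grey and the 7 genes in colour. nfkbiaa lies far right with 0.48 in untreated and 0.21 in H2O2 libraries, and cebpb and irg1l lie at the top with 0.74 and 0.71 in H2O2 libraries.

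Within the groups, libraries high in one of the 7 genes were mostly high in the others, except in traf6. Over the deviations of the 6 libraries from their group means, Pearson's r was 0.47 to 0.97 in the 15 pairs that leave out traf6, and −0.54 to −0.20 in the 6 pairs of traf6 with another gene. The closest were socs3b with cebpb at 0.97, socs3b with irg1l and nfkbiab with irg1l, both at 0.96, and nfkbiaa with elf3 at 0.93. Genes that differed between the groups in opposite directions, such as nfkbiab and irg1l, thus had high and low values in the same libraries of a group. These correlations describe 6 libraries that share depth and scaling across genes. They also carry the values of H2O2 replicate 3, the highest H2O2 library in 6 of the 7 genes. It was so in 76.3% of the higher and 27.3% of the lower genes of the table. The range of r over other pairs of genes in the table is not given here.

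Among all 670 genes, the pattern over the 6 libraries most like nfkbiaa was that of the cytochrome P450 genes cyp2ad3 and cyp27a7 (Pearson's r of 0.996 and 0.995), followed by elf3 (0.98). For elf3 it was cyp2ad3, cyp2k19 and impg1a (0.98 each). For nfkbiab it was nfil3-2, a bZIP factor gene, at 0.99, with si:ch211-216l23.2 and kcnj1a.3 at 0.98. Likewise traf6 was nearest to foxo1a (0.98), zfp36l1a (0.96) and C24H16orf11 (0.95), and socs3b to letm2, zgc:91849 and wdr26b (0.99 each). For cebpb these were mapk8b, which encodes a JNK kinase, slc7a3a, an amino acid transporter gene, and trib3, a pseudokinase gene, at 0.999, 0.999 and 0.997. For irg1l they were bin2b (0.99), il6st (0.98) and clcn5 (0.98). Each r is over 6 libraries and is set in part by the difference between the groups that brought the genes into the table.

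Over all 238 symbols of the 5 lists, 21 genes were in the table, the 7 genes among them. Of the 21, 17 were higher and 4 lower in H2O2-treated larvae, that is 81.0% higher, against 61.8% of the table. The 4 lower genes were nfkbiaa, nfkbiab, elf3 and nr4a1. By limma 0 of the 21 passed the adjusted threshold, and before adjustment 14 of the higher genes and all 4 lower ones were under 0.05, with 55.5% of the table higher and 37.8% lower by the same measure. The table had been selected on these libraries and the lists were chosen with earlier results known, so the split was not tested.

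**Figure D5:**
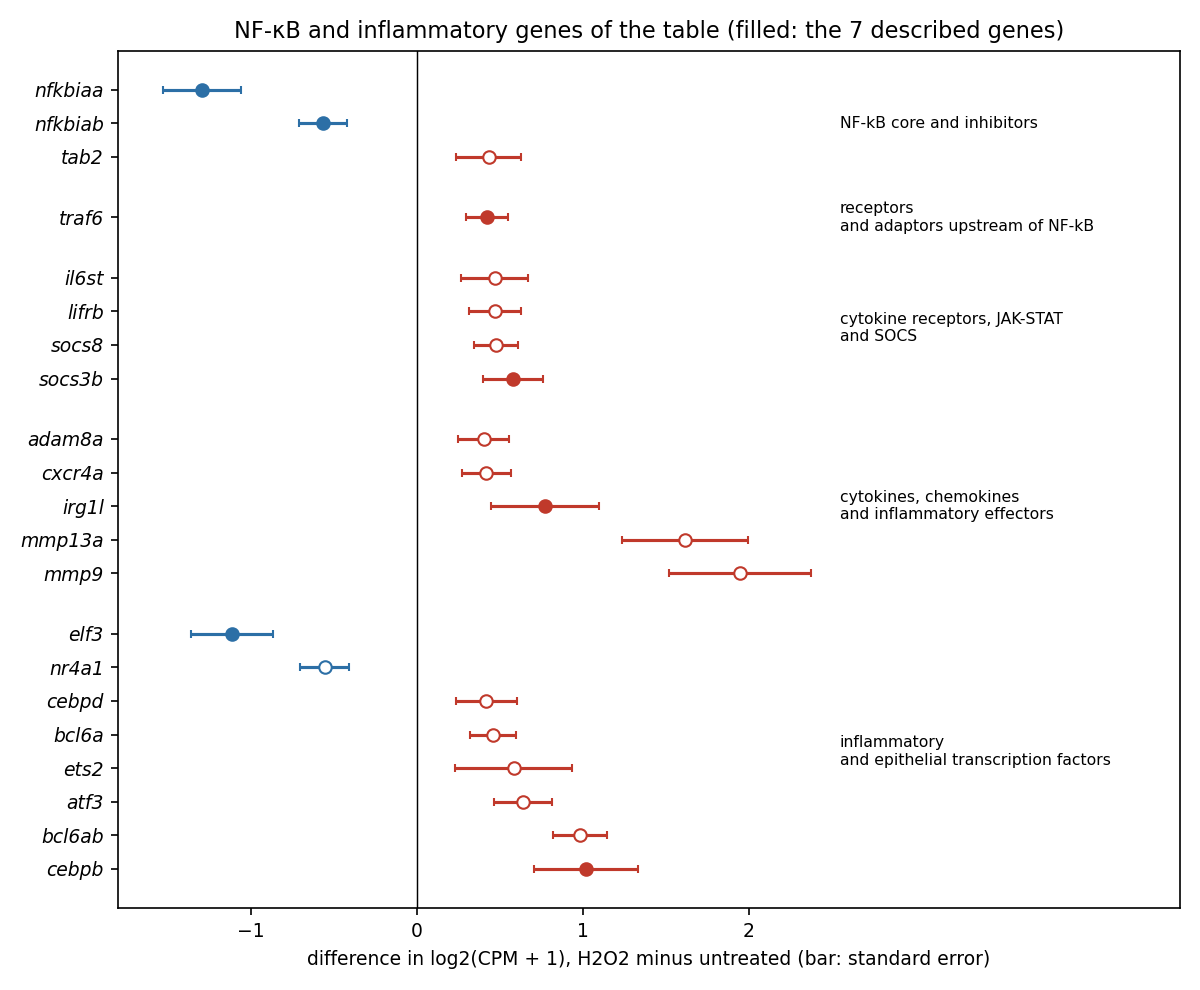
Difference in log2(CPM + 1), H2O2 minus untreated, with its standard error from limma, for the 21 genes of the 5 lists that are in the table, grouped by list. Filled points are the 7 described genes, red is higher and blue lower, and the lower genes are nfkbiaa, nfkbiab, elf3 and nr4a1.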

How the data were processed

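The authors trimmed paired-end reads, aligned them to Ensembl transcripts of Zv9 with RSEM and tested genes with edgeR. Among the tools in the submitters' processing notes are TopHat with Bowtie2 2.0.9, Cuffdiff and Cufflinks. The methods of the study state 4 dpf and 3 h of H2O2, the labels 3 dpf and 2 h, and neither could be settled here. The study describes the replicates as separate pools. The deposited log2 values are log2(CPM + 1) per library, made by the authors, for genes with their p under 0.05 and mean log2 CPM above 1. Further columns hold the authors' fold changes, p and FDR and were not used. The deposit splits the same lines by direction into a pair of further tables (0 lines differ).

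CPM were recovered by undoing the logarithm and subtracting 1. Every value was then a whole number of reads within 0.02, and this step gave the implied totals, which are effective library sizes if the authors had scaled them. Counts exist for selected genes only, so limma 3.58.1 in R 4.3.3 was fitted to the log2 values of all 670 genes, two-sided, with treatment as the only term and 4.40 prior degrees of freedom. Benjamini-Hochberg adjustment ran over 24050 tests, the annotated genes less those without reads, since entry to the table had required a low p. That number includes genes under the authors' limit of mean log2 CPM, which could not enter the table, so the adjusted p may be too high. The fit was tested on simulated data with known differences. The simulation held 24050 genes not selected by p, so it does not cover the effect of that selection on the fit to the 670 genes. Wilson intervals came from scipy 1.17.1. Strand in the counting is not given in the sources used here.

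The 7 genes and the lists were chosen with earlier results of these data known. The lists (5 of pathway genes, 8 of cell type markers) were written from textbook knowledge and matched by symbol without case. Named genes were the 7, up to 3 of the largest differences of each list, and the 3 genes most correlated with each of the 7. Outside this rule, values are given for il6st, cxcr4a, adam8a, nr4a1 and cebpd. The listed factors atf3, ets2 and bcl6a, all higher on average, are not described in the text. All 7 identifiers were in the reference name table, which gives SOCS3 for socs3b and otherwise the same names apart from case. Alternatives tried were adjusting over the 670 genes alone, moderation that was robust or followed a mean-variance trend, a pseudocount of 0.1 or 5, a filter at a mean log2 value of 3, equal medians, a replicate block, leaving out each library, and other symbol matching. Promoter and protein sequences were not used here.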

Additional observations from a re-analysis of the deposited data

How the results depend on the processing

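All 7 genes kept their direction under the 14 alternatives run for each, which was largely fixed in advance. The adjustment, moderation, filter and block alternatives leave the difference itself unchanged. In the 6 genes whose groups did not overlap, neither a pseudocount nor leaving out a single library can reverse it. With the adjustment over the table alone, differences were unchanged at −1.29 (nfkbiaa), −0.57 (nfkbiab), 0.42 (traf6), 0.58 (socs3b), 1.02 (cebpb), −1.12 (elf3) and 0.77 (irg1l). Then 7 of the 7 genes passed the threshold, among 365 higher and 252 lower genes of the 670 that did. This is not independent evidence, since entry to the table had required a low p. With the replicate number as a block, 3 of the 7 passed (nfkbiaa at −1.29, cebpb at 1.02 and elf3 at −1.12). They were among the 51 higher and 20 lower genes, of 670 in the table, that passed. The block leaves fewer residual degrees of freedom than the main fit, so its SE rests more on moderation across the selected genes. In that fit the SE was alike in all 7 genes, at 0.17 to 0.21, against 0.13 to 0.33 in the main fit. It was smaller than in the main fit in nfkbiaa, cebpb, elf3 and irg1l, and larger in nfkbiab and traf6. The fall in irg1l was from 0.33 to 0.19, without passing (adjusted p = 0.097, limma). In socs3b the SE was 0.18 in both fits. Deviations of same-numbered libraries from their group means correlated at −0.0014, −0.11 and −9.6e-05 over genes. Between differently numbered libraries of the 2 groups, r was −0.043 to 0.061. These values cannot decide whether the numbers pair the libraries, because they cover only genes that a low p brought into the table. Whether the block is the fitting model was therefore not settled. With single libraries left out, 0 of the 7 passed. The differences then ranged from −1.53 to −1.05 in nfkbiaa, −0.70 to −0.49 in nfkbiab, 0.36 to 0.49 in traf6, 0.40 to 0.74 in socs3b, 0.63 to 1.36 in cebpb, −1.34 to −0.91 in elf3 and 0.37 to 1.02 in irg1l, and 0 to 9 higher (9 without H2O2 replicate 2) and 0 to 1 lower genes (1 without H2O2 replicate 3) of the table passed. The cause was not tested. Equal medians gave −1.44 in nfkbiaa and 0.28 in traf6, and a pseudocount of 5 gave −1.01 and 0.30. The medians of the selected genes were 3.90 to 3.94 in untreated and 3.98 to 4.19 in H2O2 libraries. Setting them equal thus lowered every difference by the same amount, with any treatment effect on the median included. The counts of list genes were the same with exact symbols and, an alternative chosen after seeing the data, with reference symbols. Before adjustment, irg1l was no longer under 0.05 with equal medians, a pseudocount of 5, a mean log2 value of at least 3, or without untreated replicate 1, untreated replicate 2 or H2O2 replicate 3, and traf6 with equal medians or without untreated replicate 2. The SD between H2O2 libraries, which contains counting error, was 1.38 times the counting SD in traf6 and 26.5 times in cebpb. In untreated libraries it was 1.71 times in traf6 and 3.40 times in cebpb. The part of depth in these ratios was not tested.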
